A study of Mus musculus with 12 samples.

Results

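Circular RNAs of 2 mouse tumour cell lines were compared: 4T1, labelled as breast cancer cells, and B16F10, labelled as melanoma cells. Each line had 3 libraries of total RNA treated with RNase R, and the labels give no treatment and no genetic change for either. The libraries of 4T1 were deposited in a table with those of the breast epithelial line Eph4-ev, called the mammary table here. Those of B16F10 were deposited with the melanocyte line Melan-a, in the melanocyte table. The comparison used the 8928 circRNAs listed in both tables, of 9492 in the mammary and 12910 in the melanocyte table, and the 6 tumour libraries of the 12 in the series. Of these circRNAs, 5806 had a read in 4T1, 4274 in B16F10 and 3203 in both lines.

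A circular RNA (circRNA) forms when the spliceosome joins the end of an exon to the start of the same exon or of an earlier one. The resulting back-spliced junction is absent from the linear transcript, and a read across it counts as a circRNA read. Closed circles have no free end, so they resist RNase R, which digests linear RNA, and they are long-lived in cells. 4T1 is a widely used model of metastatic mammary carcinoma and keeps epithelial gene expression, whereas B16F10 derives from pigment cells of the neural crest lineage. Each tumour type is represented by 1 line, and the lines come from different inbred strains, so tumour type, strain and line cannot be told apart.

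The 4T1 libraries held 15572, 17735 and 44625 junction reads and the B16F10 libraries 20011, 16943 and 16697. Levels are given as RPM, junction reads scaled to a common library total, on which a single read stood for between 22.4 and 64.2 RPM. Replicates of 4T1 spread more than those of B16F10: the biological coefficient of variation was 0.421 in 4T1 and 0.167 in B16F10. Spearman correlations were taken over 1270 circRNAs with at least 20 reads summed over the 6 libraries. They were 0.53 to 0.56 between 4T1 libraries, 0.72 to 0.75 between B16F10 libraries and 0.04 to 0.24 between the lines. That sum admits circRNAs read mainly in 1 line, which can lower the correlation between the lines. The deepest library, 4T1 replicate 3, had 343 circRNAs with exactly 1 read, against 787 to 1361 in the other 5. The joined list held 99.7% to 99.8% of the 4T1 reads but 81.5% to 82.7% of the B16F10 reads, and line and table cannot be told apart. Melanocyte markers with circRNA reads numbered 9 of 15 in B16F10 (summed level 12040 to 13493 RPM) and 0 of 15 in 4T1, over all circRNAs of either table. Of those 9, 2 had reads from circRNAs on the joined list (summed 799.6 to 958 RPM in B16F10), and for the rest, Pmel among them, 0 in 4T1 means that the mammary table does not list the circRNA. Mammary epithelial markers numbered 5 of 17 in 4T1 (summed 1882 to 3496 RPM) and 0 of 17 in B16F10, with Krt8, Krt18 and Krt5 at 0 in both. The immune, fibroblast, endothelial and keratinocyte lists, of 18, 10, 8 and 10 genes, had 0 reads in both lines. The labels do not say that the libraries came from separate cultures, so p-values measure only the spread between these libraries. In bulk RNA, fewer cells making a circRNA and less of it per cell cannot be told apart.

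The junctions below belong to the circRNAs on which the results turn. Each is given 5′ to 3′ on the strand of the gene, from GENCODE M21 transcripts, with positions in mm10. Lower case marks the last 15 bases of the downstream exon and capitals mark the first 15 bases of the upstream exon to which it is joined. Circles of 1 gene that share their capitals share the upstream splice site and differ in the downstream splice site that closes the circle.
Nfix exon 2: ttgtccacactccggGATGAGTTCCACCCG
Med13l exon 2: atcatgaactgcaggGCTGAACTCACAGGA
Pvt1 exon 2: agctccctctaaaatGTCTGATTTTCTTAA
Pvt1 exons 2 to 3: atttggaaaattgagGTCTGATTTTCTTAA
Elf2 exons 2 to 4: agaattcagaaacagTAGTTCCAGAGAACC
Elf2 exons 2 to 5: aggaagacaatgctgTAGTTCCAGAGAACC
Gigyf2 exons 4 to 8: gaagaaaagatgtagGCTCCGTGCTCTGTC
Eefsec exons 3 to 4: atccctgccctcaagATTCCGGGGTGCACC
Rev1 exons 7 to 22: aaaatacatgaaaagGCACTATGTCAGTGT
Ezh2 exons 2 to 3, long form: cgcgggactagggagAATAATCATGGGCCA
Ezh2 exons 2 to 3, short form: cacatcatgacttctAATAATCATGGGCCA
Met exons 2 to 3: cactgtttcaataggGATGGCTGTGGAGAG
Met exons 2 to 4: ggtcgcttcatgcagGATGGCTGTGGAGAG
The circles lie at chr8:84771784-84772315 (Nfix, minus strand), chr5:118593333-118593570 (Med13l, plus), chr15:62107148-62107465 and chr15:62107148-62175548 (Pvt1, plus), chr3:51308050-51326035 and chr3:51299783-51326035 (Elf2, minus), chr1:87364104-87380008 (Gigyf2, plus), chr6:88355483-88358642 (Eefsec, minus), chr1:38053616-38085652 (Rev1, minus), chr6:47576536-47577667 and chr6:47576563-47577667 (Ezh2, minus) and chr6:17487797-17492437 and chr6:17487797-17513541 (Met, plus). The Pvt1 circles are noncoding. Those of Nfix, Med13l, Gigyf2, Eefsec and Rev1 lie within coding sequence, and those of Ezh2, Met and Elf2 exons 2 to 4 run from the 5′ untranslated region across the start codon.

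Between the tumour lines, 152 circRNAs were higher in 4T1 and 123 lower, of 692 with enough reads to test (edgeR quasi-likelihood test, adjusted p under 0.05). That is 39.7% of those tested, 22.0% higher and 17.8% lower. Most called differences were large: 267 of the 275 had an absolute log2 difference of at least 1 and 128 of at least 3. The tested circRNAs held 56.2% of the 4T1 reads and 54.6% of the B16F10 reads. In RPM, all 3 libraries of 4T1 stood above all 3 of B16F10 for 210 circRNAs (30.3%) and below for 167 (24.1%). The balance of directions depended on the scaling, since own-total scaling left the median over all tested circRNAs at a log2 difference of 0.23. With TMM factors the median was 0.02 and the split was 130 higher and 138 lower, which moves every fold down by about the same amount. Without 4T1 replicate 3, the library that stood apart in depth, 160 were higher and 141 lower of 914 tested.

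**Figure D1:**
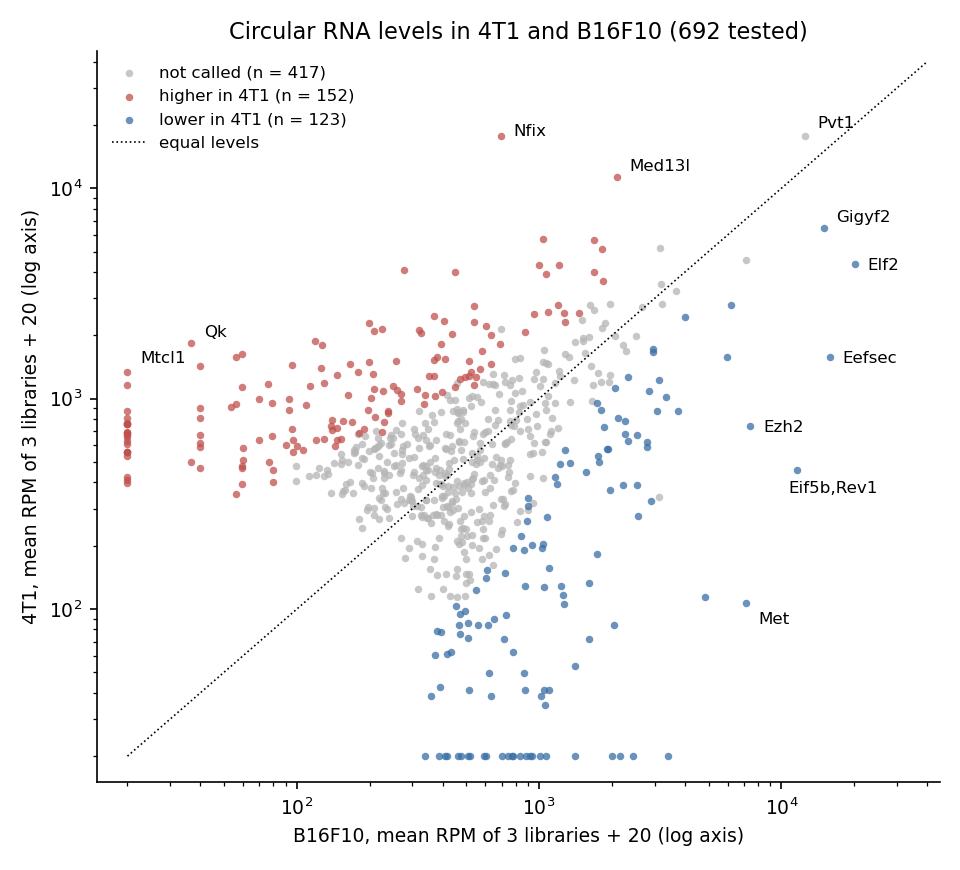
Mean RPM of 3 libraries in 4T1 (vertical) against B16F10 (horizontal) for the 692 tested circRNAs, on log axes after adding 20 RPM. Points are circRNAs, red where higher in 4T1 (152), blue where lower (123) and grey where not called (417), and points on the left and lower edges have no read in 1 of the lines.

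The most abundant circRNAs of the lines overlapped in part. Those with the highest mean in 4T1 came from Nfix, Pvt1, Med13l, Gigyf2 and Tns3, and those in B16F10 from Elf2, Eefsec, Gigyf2, Pvt1 and Rev1. The circle of Nfix exon 2, from a nuclear factor I transcription factor gene, gave 268, 349 and 730 reads in 4T1 and 12, 13 and 11 in B16F10. Its level was 17210.4, 19679 and 16358 RPM in 4T1 and 599.7, 767 and 659 RPM in B16F10, so every 4T1 library stood far above every B16F10 library. The log2 difference was 4.71 (SE 0.28, adjusted p = 1.02e-09). Pvt1 is a long noncoding gene next to Myc, and the circle of its exon 2 was read 274, 348 and 697 times in 4T1 and 227, 240 and 201 in B16F10. The means were 17612 ± 2002 and 12516 ± 1470.1 RPM (SD, n = 3), and the groups did not overlap. The log2 difference of 0.49 (SE 0.21, 95% interval 0.05 to 0.94) did not pass the test (adjusted p = 0.0729). It passed under 4 of 16 alternatives, among them DESeq2 (adjusted p = 0.014) and without 4T1 replicate 3 (0.0249), over a range of 0.014 to 0.377.

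Med13l encodes a subunit of the kinase module of Mediator, the complex that links transcription factors to RNA polymerase II. The circle of its exon 2 was read 220, 199 and 379 times in 4T1 and 33, 50 and 27 in B16F10, or 14128, 11221 and 8493 against 1649, 2951 and 1617 RPM. The groups did not overlap, and the log2 difference was 2.44 (SE 0.30, adjusted p = 6.31e-06). Gigyf2, a translational repressor that acts with the cap-binding protein 4EHP, gave a circle of exons 4 to 8 that was among the top 5 of both lines. Its reads numbered 117, 133 and 189 in 4T1 and 307, 237 and 257 in B16F10, or 7513, 7499 and 4235 against 15342, 13988 and 15392 RPM, with the lowest level in 4T1 replicate 3. It was lower in 4T1 by a log2 difference of -1.23 (SE 0.25, adjusted p = 0.000689). The ETS family transcription factor gene Elf2 gave the most abundant circle of B16F10, exons 2 to 4, with 56, 59 and 271 reads in 4T1 and 369, 343 and 364 in B16F10. Its levels of 3596, 3327 and 6073 against 18439.9, 20244 and 21800.3 RPM did not overlap, and the log2 difference was -2.19 (SE 0.26, adjusted p = 4.1e-06).

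**Figure D2:**
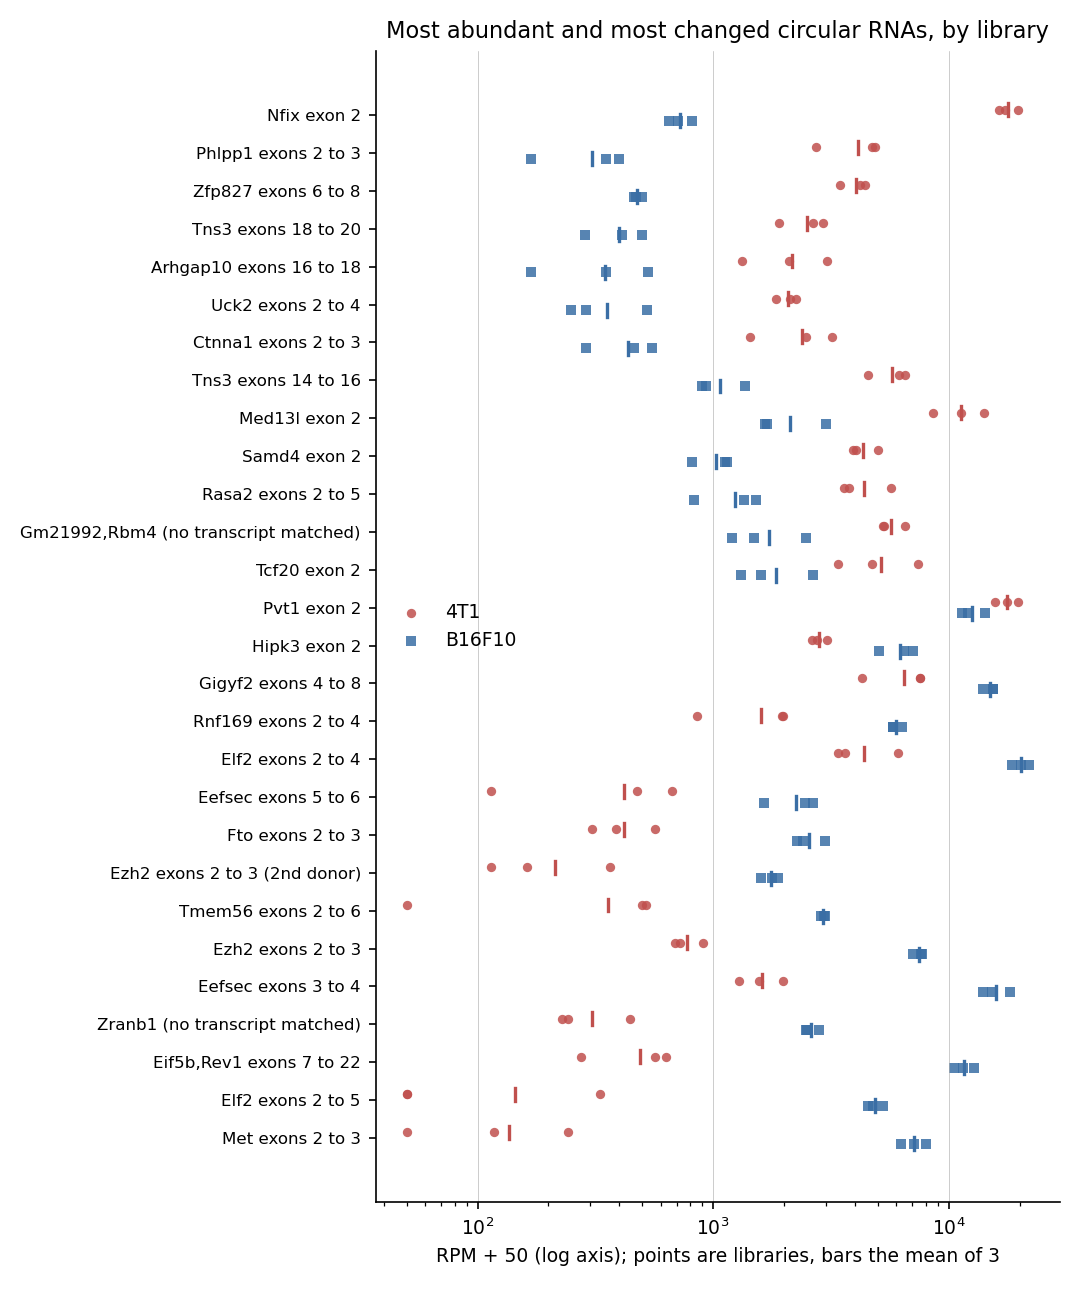
RPM plus 50 (log axis) of the most abundant and most changed circRNAs in each 4T1 library (red circles) and B16F10 library (blue squares), with the mean of 3 libraries as a bar. The levels run without overlap in every one of the 28 rows, from Nfix exon 2 at the top, with the largest fold in favour of 4T1, to Met exons 2 to 3 at the bottom.

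Among circRNAs averaging at least 5 reads in each line, the largest folds in favour of 4T1, beside Nfix and Med13l, came from Zfp827, Tns3, Arhgap10, Uck2 and Ctnna1. The circle of exons 6 to 8 of Zfp827, a zinc finger gene, gave 68, 74 and 152 reads in 4T1 and 9, 7 and 7 in B16F10. Its mean was 3982 ± 508 RPM in 4T1 and 427 ± 19.6 in B16F10 (SD, n = 3), and its log2 difference 3.19 (SE 0.33, adjusted p = 7.91e-07). Tns3 encodes tensin 3, which ties integrins to actin at focal adhesions. Its circle of exons 14 to 16 (chr11:8518199-8519570) had 70, 115 and 273 reads against 17, 15 and 22, and that of exons 18 to 20 (chr11:8478225-8479665) 29, 46 and 129 against 9, 4 and 6. Both stood above the B16F10 range in every 4T1 library, with log2 differences of 2.49 (SE 0.30) and 2.79 (SE 0.37). Arhgap10, a GTPase-activating protein gene, gave a circle of exons 16 to 18 with 32, 53 and 57 reads against 6, 2 and 8, and its log2 difference was 2.76 (SE 0.47, adjusted p = 0.000187). Those of the uridine-cytidine kinase gene Uck2 (28, 39 and 92 reads against 4, 8 and 4) and the alpha-catenin gene Ctnna1 (38, 56 and 62 against 10, 7 and 4) had log2 differences of 2.73 (SE 0.41) and 2.53 (SE 0.42). The groups did not overlap for any of these 6 circles.

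Further abundant circRNAs were named after their values were seen, as called ones with a mean of at least 4000 RPM in 1 line. Higher in 4T1 were the circle of exons 2 to 3 of Phlpp1, a phosphatase gene that acts on Akt, with 42, 83 and 215 reads against 7, 2 and 5 (log2 difference 3.95, SE 0.41, adjusted p = 7.91e-07), and that of exon 2 of Samd4, which encodes the RNA-binding protein Smaug, with 62, 69 and 221 against 22, 13 and 18 (log2 difference 2.12, SE 0.30). Other circles were higher by less. They came from Rasa2, a Ras GTPase-activating protein gene (1.84, SE 0.32), the Rbm4 locus, where the tables name Gm21992 and Rbm4 (1.76, SE 0.30), and the transcriptional coregulator gene Tcf20 (115, 59 and 209 reads against 31, 44 and 21). Lower in 4T1 were circles of Hipk3, a homeodomain-interacting kinase gene (40, 48 and 134 reads against 128, 119 and 84, log2 difference -1.15, SE 0.25), and of the ubiquitin ligase gene Rnf169 (30, 34 and 36 against 115, 97 and 105).

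The largest folds in favour of B16F10, among circRNAs with the same average of at least 5 reads, came from Rev1, Eefsec, Zranb1, Ezh2, Tmem56 and Fto. The circle of exons 7 to 22 of Rev1, a translesion DNA polymerase gene, is listed under the host names Eif5b and Rev1. Its reads numbered 9, 4 and 23 in 4T1 and 210, 217 and 191 in B16F10, or 578, 226 and 515 against 10494, 12808 and 11439 RPM. The groups lay far apart, and the log2 difference was -4.66 (SE 0.32, adjusted p = 6.44e-09). Eefsec encodes the elongation factor that brings selenocysteine to the ribosome. The circle of its exons 3 to 4 had 30, 27 and 55 reads against 280, 258 and 304 (log2 difference -3.37, SE 0.27, adjusted p = 2.61e-08), and that of exons 5 to 6 had 1, 11 and 19 against 32, 44 and 40 (log2 difference -2.48, SE 0.45, adjusted p = 0.000284). Ezh2 is the methyltransferase of Polycomb repressive complex 2. Its long form of exons 2 to 3 was read 10, 12 and 38 times in 4T1 and 152, 119 and 128 in B16F10, and the short form, of 226 bases against 253 after splicing, had 1, 2 and 14 and 31, 31 and 29. As the junctions above show, they share the upstream exon, and their log2 differences were -3.31 (SE 0.28) and -3.06 (SE 0.49).

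Fto encodes an RNA demethylase, and the circle of its exons 2 to 3 was read 4, 6 and 23 times in 4T1 and 59, 40 and 37 in B16F10 (log2 difference -2.64, SE 0.35, adjusted p = 1.83e-05). That of exons 2 to 6 of Tmem56, a membrane protein gene, had 7, 0 and 21 against 59, 49 and 47 (log2 difference -3.08, SE 0.47, adjusted p = 7.08e-05). That of the deubiquitinase gene Zranb1, whose ends matched no single transcript, had 3, 7 and 8 against 49, 41 and 46 (log2 difference -3.37, SE 0.39, adjusted p = 3.59e-06). Every 4T1 library stood below every B16F10 library for these 3 circles. The 4T1 libraries differed among themselves by more than those of B16F10: the Tmem56 circle had 0 reads in replicate 2, and that of Eefsec exons 5 to 6 had 1 in replicate 1.

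A circRNA counted as read in 1 line only with 2 or more reads in every library of that line and 0 in the other. On the joined list, 131 circRNAs were read only in 4T1 and 68 only in B16F10. With libraries thinned to equal depth these counts were 104 and 72. With unlisted circRNAs set to 0 they were 131 and 207, so which line had more depended on the list. Whether the unlisted circRNAs were absent from 4T1 was not tested. The fold of a circRNA read in 1 line only is a lower bound, set against a floor of 3 reads over the 3 libraries at 0. The floor covers counting error only. The most abundant only in 4T1 was a circle of exons 2 to 3 of the microtubule crosslinker gene Mtcl1 (10, 30 and 73 reads, at least 25.9-fold higher). It had 0 reads in Eph4-ev and Melan-a as well. Circles followed of the microtubule-associated kinase gene Mast4 (20, 19 and 48 reads), the mesothelin gene Msln (6, 18 and 52, at least 17.4-fold), the microtubule-associated protein gene Map4 (10, 14 and 42, at least 15.1-fold), the LIM protein gene Fhl2 (14, 14 and 25, at least 12.2-fold) and the keratin gene Krt7 (6, 23 and 24, at least 12.2-fold). The circles of Mast4, Msln, Fhl2 and Krt7 also had reads in Eph4-ev and 0 in Melan-a.

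On the joined list, the most abundant B16F10 circRNA without a 4T1 read was that of exons 2 to 4 of Met, the hepatocyte growth factor receptor. It had 65, 59 and 57 reads in B16F10 (at least 87.6-fold lower in 4T1). The shorter Met circle, of exons 2 to 3, was named after its values were seen and gave 3, 0 and 3 reads in 4T1 and 125, 120 and 133 in B16F10 (log2 difference -6.41, SE 0.46, adjusted p = 9.27e-09). An Elf2 circle reaching past exon 5 (chr3:51294093-51326035, no single transcript matched) had 26, 22 and 9 reads (at least 27.6-fold lower). That of exons 2 to 5, named after its values were seen, had 0, 5 and 0 in 4T1 and 104, 76 and 79 in B16F10 (log2 difference -6.03, SE 0.61).

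Several circles of 1 host mostly went the same way. Of 112 hosts with at least 2 tested circRNAs, 23 had at least 2 called, all higher in 8 hosts, all lower in 13 and opposite in 2 (Dennd1b and Nudcd3, in each of which calls were lost under alternatives). Met summed to 4, 0 and 8 reads against 202, 193 and 197 (log2 difference -6.14, SE 0.39, adjusted p = 1.13e-08). Of Ezh2, 4 of 5 tested circles were lower (log2 differences of the called ones -3.31 to -2.19), and of Elf2 4 of 4 (-7.53 to -1.77). In the other direction, Tns3 had 4 of 4 higher (2.49 to 3.72), Arhgap10 4 of 5 and Ube2cbp, a ubiquitin ligase gene, 3 of 3 (3.43 to 6.85). Both tested circles were higher for Qk, an RNA-binding protein that promotes circle formation (4.45 to 6.22), and for the spindle checkpoint gene Mad1l1 (2.88 to 5.19). Fitted folds of circles with 0 to 3 reads in a line depend on the prior count of the fit, and circles of 1 host share a primary transcript and are not independent of each other.

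Some abundant circRNAs were at nearly the same level in both lines. Of those with at least 1000 RPM in each, the 5 whose 95% interval reached least far from 0 came from Dtnb, Dennd1b, Stxbp5, Cnot2 and Atxn2. The circle of exons 5 to 8 of Dtnb, encoding beta-dystrobrevin, had a mean of 1964 ± 238 RPM in 4T1 and 2036 ± 435 in B16F10 (SD, n = 3). The libraries overlapped, and the log2 difference was -0.04, with a 95% interval of -0.65 to 0.57. The intervals were -0.64 to 0.71 for exons 6 to 9 of the Rab activator gene Dennd1b and -0.80 to 0.71 for exons 17 to 18 of the syntaxin-binding gene Stxbp5. They were -0.74 to 0.76 for exons 2 to 4 of the deadenylase subunit gene Cnot2 and -0.67 to 0.78 for exons 2 to 5 of the ataxin gene Atxn2. For these 5, differences inside those intervals could not be told from 0 at this depth.

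Summed over the circRNAs of each single host, 178 host genes were higher in 4T1 (25.0%) and 99 lower (13.9%) of 712 tested, 38.9% in all, with a median log2 difference of 0.39. With TMM factors the split was 132 and 127 and the median 0.10, so 64.3% of calls were higher by own-total scaling and 51.0% by TMM. With unlisted circRNAs set to 0 reads it was 167 and 170, and without 4T1 replicate 3 it was 153 and 97 of 829. These backgrounds apply to the gene lists that follow. Of 18 tested adhesion, cytoskeleton and matrix hosts, 9 were higher in 4T1 and 0 lower (median 1.61). At an unadjusted p under 0.05 these were 10 and 1, with TMM factors or limma-voom 8 and 1, and with DESeq2 8 and 0. The called hosts were Tns3, Mtcl1, the atypical cadherin Fat1, the formin Diaph3, the actin-filament protein Afap1, the LIM protein Lpp, the spectraplakin Macf1, the microtubule plus-end protein Clasp1 and the focal adhesion kinase Ptk2. Tns3 summed to 114, 182 and 475 reads in 4T1 and 29, 19 and 30 in B16F10 (log2 difference 2.69, SE 0.24, adjusted p = 5.52e-07), with no overlap. Fat1 had 32, 31 and 90 against 7, 5 and 8 (log2 difference 2.36, SE 0.36, adjusted p = 0.00015) and Diaph3 40, 51 and 134 against 13, 17 and 17 (log2 difference 1.67, SE 0.28, adjusted p = 0.000238). Ptk2 (48, 35 and 104 against 31, 25 and 26) was the weakest, with a log2 difference of 0.68, SE 0.26, adjusted p = 0.048, and its call was lost under 13 of 16 alternatives, TMM among them (adjusted p = 0.281).

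Few epithelial and pigment hosts were testable. Of 4 tested epithelial hosts 3 were higher in 4T1 and 0 lower (median 5.52, or 3.75 with hosts at 0 reads set to their bound). The desmosomal plakophilin Pkp2 gave 20, 16 and 52 reads in 4T1 and 1, 2 and 0 in B16F10, Krt7 12, 31 and 24 against 0, 0 and 0, and the epithelial transcription factor Grhl2 6, 16 and 29 against 0, 0 and 0. Pkp2 stood 20.2-fold higher by pooled reads (95% interval 6.69 to 99.8, counting error only), Krt7 at least 15.4-fold and Grhl2 at least 11.7-fold. The polarity gene Pard3 was the one not called. Krt7 and Grhl2 had enough reads to test through 4T1 alone, so once tested they could only come out higher. Of 3 tested melanocyte and pigment hosts 0 were higher and 2 lower (median -3.65). Pax3, a transcription factor of the melanocyte lineage, gave 0, 0 and 0 reads in 4T1 and 12, 15 and 13 in B16F10 (at least 19.4-fold lower). It had enough reads to test through B16F10 alone, so once tested it could only come out lower. The pigment granule gene Dtnbp1 gave 0, 3 and 0 reads in 4T1 against 7, 16 and 9. In the non-tumour lines, Pax3 gave 12, 2 and 5 reads in Eph4-ev and 3, 13 and 1 in Melan-a, and Dtnbp1 5, 12 and 40 and 2, 28 and 0, with overlap and no call there (log2 differences -0.65 and 0.10, adjusted p = 0.627 and 0.955). Dtnbp1 lost its tumour-line call without 4T1 replicate 3 (adjusted p = 0.0582) and without B16F10 replicate 2 (0.122). None of the mesenchymal genes reached the test, and of the antigen presentation list Canx alone did (log2 difference -0.12, SE 0.54, adjusted p = 0.865). For Canx, edgeR, DESeq2 and limma-voom made 0 calls, and 0 of 1 passed unadjusted (p under 0.05).

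Signalling genes went both ways. Of 4 tested receptor tyrosine kinases, 2 were higher in 4T1 and 1 lower (median 1.14). The insulin-like growth factor receptor Igf1r had 43, 39 and 101 reads against 6, 4 and 0 (log2 difference 3.66, SE 0.50, adjusted p = 5.91e-05) and the insulin receptor Insr 29, 37 and 120 against 10, 10 and 11 (log2 difference 1.94, SE 0.32, adjusted p = 0.000226), while Met was lower as given above. Of 15 MAPK, PI3K and small GTPase genes 6 were higher and 2 lower (median 1.14, TMM 5 and 3). Among those higher were Arhgap10, the guanine nucleotide exchange factor Vav3 (16, 18 and 41 reads against 0, 0 and 0, at least 17.2-fold), Rasa2, the PI3K catalytic subunit Pik3cb and the mTORC1 subunit Rptor. Lower were Dock1, a Rac exchange factor, and the MAP kinase kinase Map2k1. Dock1 lost its call under 3 of 15 alternatives and Map2k1 under 2 of 16, each time with a library left out. Of 8 TGF-beta, BMP and WNT genes 3 were higher and 1 lower (median 0.38, TMM 2 and 1). The receptor Tgfbr2 had 26, 46 and 87 reads against 5, 0 and 2 (log2 difference 3.94, SE 0.55, adjusted p = 6.69e-05) and the WNT coreceptor Lrp5 10, 23 and 96 against 3, 3 and 8 (log2 difference 2.41, SE 0.56, adjusted p = 0.00337). Smad1 (higher) and the coreceptor Lrp6 (lower) each lost the call under 8 alternatives.

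In the nucleus, 4 of the 22 hosts tested from the chromatin regulator list had lower sums in 4T1 and 1 a higher one (median 0.02, TMM 0 and 5). Ezh2 summed to 23, 22 and 82 reads in 4T1 and 231, 192 and 198 in B16F10 (log2 difference -2.90, SE 0.20, adjusted p = 4.01e-08). The Polycomb partner Asxl2 had 12, 19 and 25 against 69, 63 and 50 (log2 difference -2.13, SE 0.29, adjusted p = 5.31e-05) and the histone methyltransferase Ash1l 31, 19 and 44 against 68, 48 and 45 (log2 difference -1.18, SE 0.29, adjusted p = 0.00458). The DNA methyltransferase Dnmt3a had 0, 0 and 0 against 6, 9 and 11, at least 12.6-fold lower. The histone demethylase Kdm6a, the one called higher, lost its call under 9 of 16 alternatives. Of 18 transcription factor and Mediator hosts 9 were higher and 5 lower (median 0.55, TMM 6 and 5). Nfix, Med13l and the Hippo pathway factor Tead1 (37, 52 and 160 reads against 12, 4 and 12, log2 difference 2.51, SE 0.35, adjusted p = 6.69e-05) were among those higher, with the osteogenic factor Runx2 (10, 10 and 26 against 0, 2 and 0). Elf2, the nuclear receptor Nr2c2 (0, 0 and 0 against 19, 5 and 11, at least 16.9-fold lower) and the coactivator Ncoa2 (log2 difference -1.31, SE 0.27, adjusted p = 0.00122) were among those lower. Of 16 splicing and RNA-binding hosts 4 were higher and 4 lower (median 0.06, TMM 2 and 4). Qk summed to 36, 69 and 114 reads in 4T1 and 2, 2 and 1 in B16F10 (log2 difference 4.88, SE 0.43, adjusted p = 5.52e-07).

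Of 10 cell cycle hosts 3 were higher and 3 lower (median 0.09, TMM 1 and 3, DESeq2 2 and 2). Of these calls, the DNA polymerase epsilon subunit gene Pole2 (higher) lost its call under 13 of 15 alternatives, the primase subunit gene Prim2 (lower) under 8 of 16 and the cohesin gene Stag1 (higher) under 7 of 16. The cyclin-dependent kinase Cdk14 gave 16, 30 and 57 reads in 4T1 and 3, 2 and 2 in B16F10 (log2 difference 3.30, SE 0.53, adjusted p = 0.000219), and the centrosomal gene Cntln 0, 0 and 0 against 12, 9 and 9 (at least 14.5-fold lower). The checkpoint kinase Bub1b was uneven within 4T1, with 21, 5 and 4 reads against 98, 73 and 65, and was not called under 4 of 16 alternatives, namely without the filter (adjusted p = 0.0607), without 4T1 replicate 2 (0.118) and without B16F10 replicate 2 (0.0626) or 3 (0.096). Of 11 metabolism and transporter hosts 3 were higher and 2 lower (median -0.21), led by adenosine kinase, Adk (log2 difference 4.29, SE 0.65, adjusted p = 0.000129), and the glycogen branching enzyme Gbe1 (log2 difference -3.63, SE 0.68, adjusted p = 0.000622). Of 21 membrane traffic hosts 3 were higher and 2 lower (median 0.09, TMM 3 and 4), led by the Rab regulators Rabgap1l (log2 difference 2.95, SE 0.44, adjusted p = 0.000129) and Rab3gap2 (log2 difference 3.59, SE 0.60, adjusted p = 0.000247). Of 17 ubiquitin system hosts 3 were higher and 1 lower (median 0.31), but with TMM factors 0 and 2, and Rnf169 was the firmest (-1.95, SE 0.30, adjusted p = 0.00016). Of 4 DNA repair hosts 1 was lower (Rev1, by its circles listed under that name alone) and of 7 nuclear pore and transport hosts 1 (Ranbp9), with 0 higher in both lists and medians of -0.31 and 0.47. Hosts known for well described circRNAs gave 13 higher and 6 lower of 32 (median 0.63), and 7 and 7 with TMM factors. Without 4T1 replicate 3 the higher and lower counts became 9 and 6 for these, 5 and 4 for transcription factor and Mediator hosts, 2 and 3 for splicing and RNA-binding hosts and 0 and 1 for ubiquitin system hosts. The DNA repair and nuclear pore lists then had 0 calls. With unlisted circRNAs set to 0, the balance of some lists moved towards lower. The counts became 5 and 7 of 22 for transcription factor and Mediator hosts and 3 and 4 of 12 for metabolism and transporter hosts. They were 3 and 4 of 23 for membrane traffic hosts and 2 and 2 of 5 for receptor tyrosine kinases, but 8 and 1 of 18 for adhesion, cytoskeleton and matrix hosts.

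Which circle a host made also differed. Of 112 hosts with at least 2 tested circRNAs, 15 used them in different proportions in the 2 lines (13.4%; edgeR diffSpliceDGE, adjusted p under 0.05), and 36 passed at an unadjusted p under 0.05. In Pvt1, the circle of exons 2 to 3 was read 31, 28 and 56 times in 4T1 and 0, 2 and 0 in B16F10, a share of 8.16 ± 1.52% against 0.271 ± 0.469% (usage adjusted p = 5.74e-05). As its junction above shows, it shares the start of exon 2 with the abundant single-exon circle.

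Elf2 was called (usage adjusted p = 5.74e-05) although all 4 of its tested circles were lower in 4T1. Exons 2 to 3 fell least, with a log2 difference of -1.77 (SE 0.59, adjusted p = 0.0227), a call lost under 4 of 16 alternatives, and the circles reaching to or past exon 5 fell most. In Dennd1b, exons 10 to 14 were read 17, 21 and 65 times in 4T1 and 14, 2 and 10 in B16F10, and exons 4 to 9 had 20, 12 and 46 and 56, 69 and 51, so 1 circle was higher and 1 lower. The first took 25.7 ± 5.83% of the host's tested reads in 4T1 and 7.56 ± 5.07% in B16F10 (usage adjusted p = 0.00122). The call of exons 10 to 14 was lost under 8 of 16 alternatives, TMM among them (adjusted p = 0.0678), and that of exons 4 to 9 under 0 of 16. In Nudcd3, exon 2 (8, 11 and 39 against 6, 0 and 3) and exons 4 to 5 (0, 2 and 2 against 8, 10 and 8) were called in opposite directions, at 93.2 ± 7.86% and 23.4 ± 21.7% for exon 2 (usage adjusted p = 0.00483). The call of Nudcd3 exon 2 was lost under 12 of 15 alternatives (TMM adjusted p = 0.0755, DESeq2 0.0661) and that of exons 4 to 5 under 6 of 15. In Fars2, a mitochondrial synthetase gene, exons 3 to 4 took every tested read in 4T1 and 70.4 ± 5.23% in B16F10 (adjusted p = 0.00571). Without B16F10 replicate 3, the usage calls of Nudcd3 and Fars2 were lost (adjusted p = 0.0542 for both). The number of hosts called was 5 without B16F10 replicate 3 and 39 without 4T1 replicate 1.

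**Figure D3:**
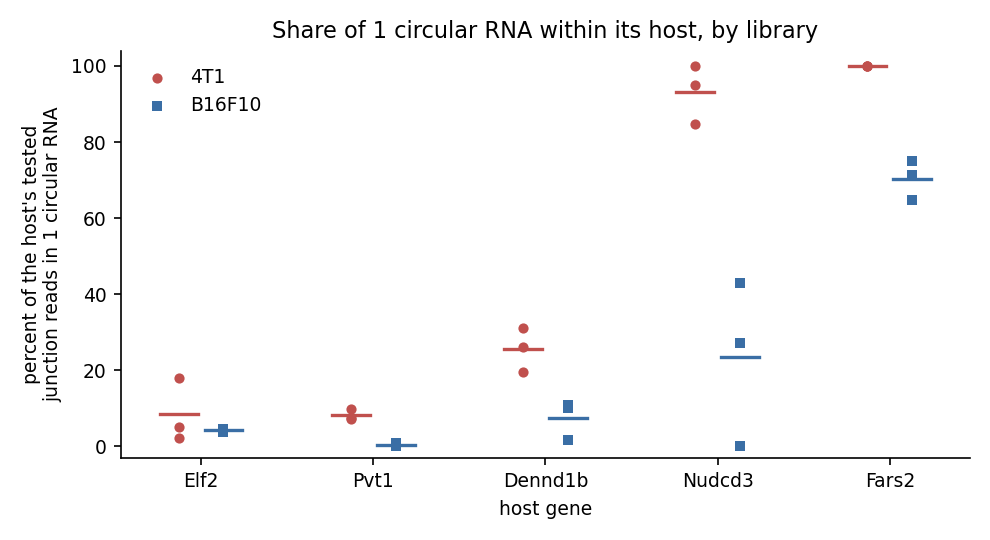
Share of 1 circRNA in the tested junction reads of its host (percent), for 5 of the hosts with the smallest usage p, in each 4T1 library (red circles) and B16F10 library (blue squares), with means as bars. The share of Pvt1 exons 2 to 3 lies between 7.18% and 9.90% in 4T1 and between 0% and 0.813% in B16F10, while for Elf2 the libraries overlap in the share shown.

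By their medians, the circles higher in 4T1 were shorter and had fewer exons than those lower, a description without a test. Of the 150 higher circles matched to exons, the median was 2 exons and 366 bases after splicing, and 26 (17.3%) had a single exon. Of the 118 lower circles matched, the median was 3.5 exons and 572 bases, and 5 (4.24%) had a single exon. Over all tested circles the values were 3 exons, 418 bases and 9.72%. Circles across the start codon made up 21.3% of the higher and 22.9% of the lower ones. Over all reads of matched circles, single-exon circles took 15.6, 14.0 and 13.7% in the 4T1 libraries and 9.17, 9.44 and 8.67% in B16F10, without overlap (exact two-sided permutation p = 0.1, the smallest that 3 against 3 allows). Without the exon 2 circles of Nfix, Pvt1 and Med13l, an alternative added after seeing the data, the means were 10.1% and 7.33% (exact permutation p = 0.1).

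The B16F10 profile was more concentrated. The 10 most abundant circRNAs took 9.16, 9.02 and 8.05% of the joined-list reads in the 4T1 libraries and 13.7, 13.4 and 13.6% in B16F10. The groups did not overlap (exact two-sided permutation p = 0.1). Over each library's own table the shares were 9.14, 8.99 and 8.03% in 4T1 and 11.6, 11.3 and 11.6% in B16F10, also without overlap. Thinned to 15572 reads, a 4T1 library held 3059.8 ± 77.6 circRNAs of the joined list and a B16F10 library 2527 ± 42.3 (SD, n = 3; exact permutation p = 0.1). That order rests on the joined list: over all circRNAs of its own table a 4T1 library held 3082 ± 76.8 and a B16F10 library 3553 ± 124. The tables differ in how they list circRNAs, since 4053 rows of the melanocyte table and 0 of the mammary table had no read in any of their 6 libraries.

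The calls were unevenly spread over chromosomes, a pattern noticed after the values were seen. Of 45 tested circRNAs of chromosome 6, 27 were lower in 4T1 and 0 higher (median log2 difference -2.41, TMM -2.64), against 17.8% lower and 22.0% higher over all. At an unadjusted p under 0.05, 29 were lower and 0 higher, and DESeq2 called 24 and 0 and limma-voom 23 and 0. The lower ones came from 15 hosts, among them Aebp2, Bcl2l13, Creb3l2, Eefsec, Ezh2, Hibadh, Lrp6, Luc7l2, Met, Mkln1, Nrf1, Shq1, Snd1 and Tulp3. Chromosome 6 took 2.92 ± 0.34% of the joined reads in 4T1 and 11.1 ± 0.556% in B16F10 (SD, n = 3). The groups did not overlap (exact two-sided permutation p = 0.1). Most chromosomes reached that p, chromosome 4 among them at 5.46% in 4T1 and 5.61% in B16F10, so it does not set a chromosome apart. The means of the non-tumour lines on chromosome 6, 5.77 ± 0.0676% in Eph4-ev and 8.06 ± 0.125% in Melan-a (SD, n = 3), lay between those of the tumour lines. Without the most abundant circle, of Eefsec, the tumour means were 2.77% and 9.15%.

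Chromosome 8 went the other way, with 19 of 39 tested circles higher in 4T1 and 2 lower (median log2 difference 1.44, TMM 1.21). The higher ones came from 15 hosts, among them Nfix, Arhgap10, Zfp827, Fat1, Insr, Smad1 and the transcriptional corepressor gene Gatad2a, and the lower ones from Fto and the mitotic gene Mcph1. It took 7.82, 8.83 and 7.81% of joined reads in 4T1 and 3.43, 3.31 and 3.39% in B16F10, without overlap (exact permutation p = 0.1). The means were 6.28 ± 0.251% in Eph4-ev and 3.53 ± 0.603% in Melan-a (SD, n = 3), and without the Nfix circle 6.37% in 4T1 and 3.30% in B16F10. On chromosome 3, 14 of 33 tested circles were lower in 4T1 and 5 higher, and its mean shares were 4.15% and 7.54%, or 3.72% and 5.08% without the Elf2 circle of exons 2 to 4.

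**Figure D4:**
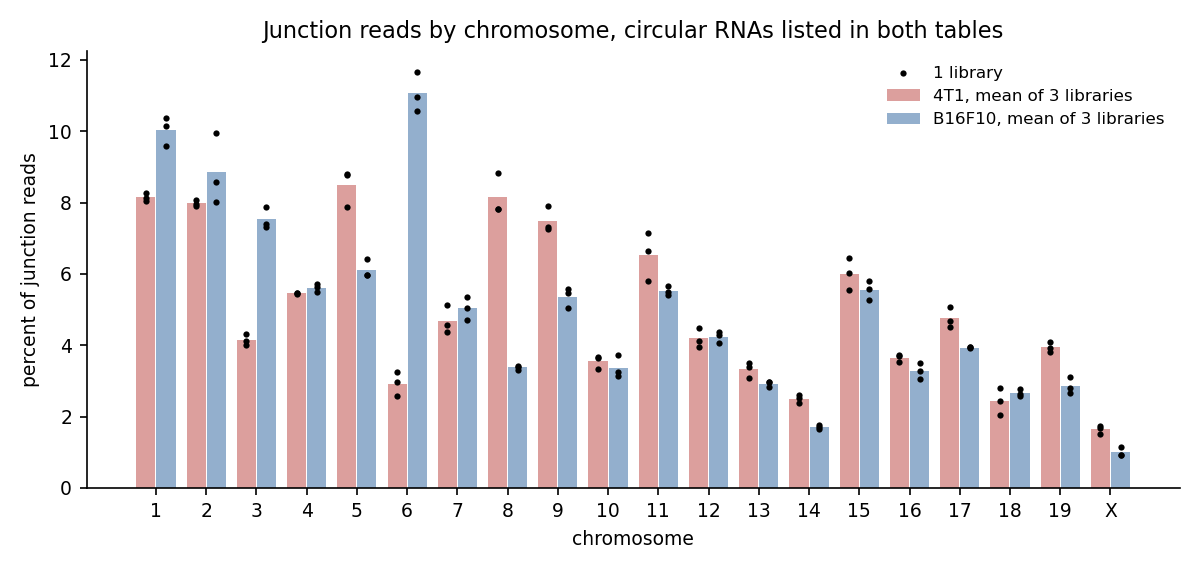
Percent of junction reads of the joined circRNAs by chromosome, as the mean of 3 libraries (bars, red for 4T1 and blue for B16F10) with each library as a point. Chromosome 6 stands at 2.92% in 4T1 and 11.1% in B16F10, and chromosome 8 at 8.15% and 3.38%.

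The non-tumour lines of the same tables were compared to see which tumour-line differences they shared. In Eph4-ev against Melan-a, 433 of 1518 circRNAs were called (28.5%), 270 higher (17.8%) and 163 lower (10.7%). Of the 275 circRNAs called between the tumour lines, 121 were called in the same direction there, 72 higher and 49 lower in the mammary lines, and 11 in the opposite direction. Those 121 are 44% of the tumour-line calls and 50.2% of the 241 non-tumour calls that could be tested in the tumour lines. The 4 lines share no library, but tumour and non-tumour lines of a lineage share a table. The test of Eph4-ev against Melan-a was also fitted on all 12 libraries, so its filter and its estimates of spread used the tumour libraries too. By sign alone, 82.2% of called and 66.9% of all tested circRNAs went the same way. The Nfix circle stood at 11992 ± 765 RPM in Eph4-ev and 689 ± 239 in Melan-a (SD, n = 3), close to the order of the tumour lines, with an interaction log2 of 0.60 (SE 0.38, adjusted p = 0.336). The Tns3, Uck2 and Elf2 circles were also ordered alike, with non-tumour log2 differences of 3.54 (Tns3 exons 14 to 16), 3.42 and -1.89 (Elf2 exons 2 to 4).

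**Figure D5:**
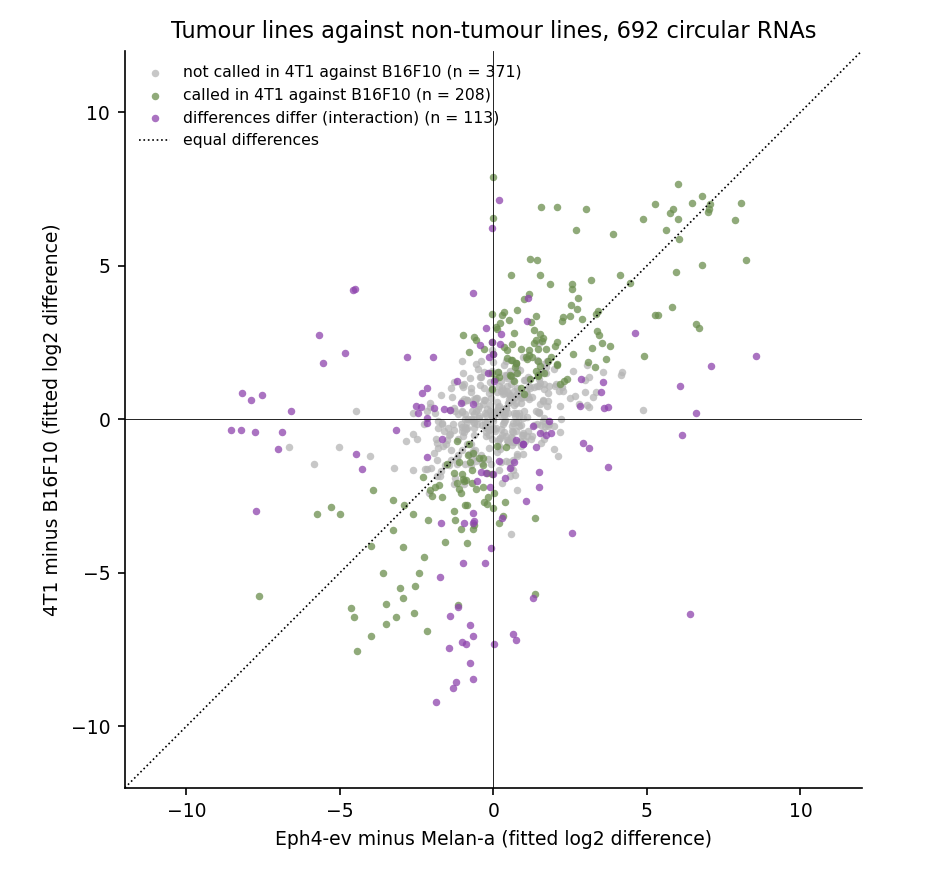
Fitted log2 difference of 4T1 minus B16F10 (vertical) against Eph4-ev minus Melan-a (horizontal) for the 692 circRNAs tested in the tumour lines. Purple points (113) had different differences in the tumour and non-tumour lines by the interaction test. Green points (208) were called between 4T1 and B16F10 but not by the interaction test, and grey points (371) by neither test. The colours do not show whether a circRNA was also called between Eph4-ev and Melan-a.

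The difference of differences was tested over all 12 libraries. It passed for 172 of 1518 circRNAs (11.3%; edgeR interaction test), 76 positive and 96 negative, and 375 passed at an unadjusted p under 0.05. Of the 275 tumour-line calls, 67 were among them. The Med13l circle stood at 3091 ± 270.1 RPM in Eph4-ev and 2673 ± 693 in Melan-a (SD, n = 3), so the excess was seen in 4T1 alone of the 4 lines (interaction log2 2.23, SE 0.39, adjusted p = 4.94e-05). The Qk circle of exons 2 to 3, with 24, 43 and 67 reads in 4T1 and 1, 0 and 0 in B16F10, had 12, 4 and 11 in Eph4-ev and 3, 9 and 3 in Melan-a (interaction 6.39, SE 1.22). For the GTPase-activating protein gene Arhgap32, exons 2 to 4 had 13, 23 and 41 against 5, 1 and 2 reads in the tumour lines and 0, 0 and 0 against 0, 15 and 3 in the non-tumour lines. For Fam160b1, exons 6 to 7 had 25, 51 and 106 against 20, 26 and 21 and 0, 0 and 0 against 19, 48 and 32, so of the 4 lines Eph4-ev alone was at 0. Its tumour-line call (log2 difference 0.87, adjusted p = 0.0375) was lost under 10 of 16 alternatives. Fitted interactions of circRNAs with 0 to 3 reads in a line depend on the prior count and give no bound.

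In the negative direction, the Rev1 circle had 168, 143 and 158 reads in Eph4-ev and 97, 145 and 56 in Melan-a, where its level did not differ by the test (log2 difference -0.27, adjusted p = 0.511). The interaction log2 was -4.41 (SE 0.42, adjusted p = 2.99e-11). In RPM it stood at 2895 ± 399 in Eph4-ev and 3472 ± 1102 in Melan-a (SD, n = 3), above 4T1 and below B16F10. The circle of exons 4 to 10 of Spen, a transcriptional repressor, gave 1, 0 and 0 reads in 4T1 and 30, 14 and 15 in B16F10 against 36, 41 and 72 in Eph4-ev and 13, 12 and 6 in Melan-a. Of the lower circles named above, that of Ezh2 (long form) differed less between the non-tumour lines than between the tumour lines (non-tumour log2 difference -0.62, interaction -2.70, SE 0.40, adjusted p = 2.66e-06). That of Gigyf2 differed more (non-tumour -2.17, interaction 0.95, SE 0.32, adjusted p = 0.047).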

How the data were processed

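Back-spliced junction reads were measured in RNase R-treated total RNA of 4T1 and B16F10, 3 libraries each, with Eph4-ev and Melan-a as non-tumour lines. Per the labels' protocols, 2 callers found the circRNAs: CIRI2, run after BWA-MEM, and CIRCexplorer2, run after TopHat and TopHat-Fusion. The submitters' processing notes give the build as mm10 and list DESeq, DESeq2 and edgeR with no role. How the authors combined the callers, filtered reads or made each deposited list is not given in the sources used here. The authors deposited raw junction-read counts per circRNA and, beside them, RPM values, which per the file headers and the column sums are the same counts scaled to a common library total (100% of RPM values gave whole reads within 0.01, with a largest difference from the deposited counts of 0, so the count test on them is the one reported).

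The tables were joined on circRNA position, and counts were scaled to each library's total in its own table. Ends were matched to GENCODE M21 exons (98.0% of circRNAs matched in 1 transcript), and 15 bases on each side of a junction were read from its transcripts. CircRNAs and hosts passing filterByExpr (minimum count 5, minimum total 10) were tested with edgeR's quasi-likelihood test (edgeR 4.0.16, R 4.3.3), with Benjamini-Hochberg adjustment over all tested and a threshold of 0.05. The filter keeps a circRNA or host that is high in 1 line alone. Where the other line had 0 reads, the direction of a call was fixed in advance. Usage was tested with diffSpliceDGE, and shares per library with exact permutation tests (SciPy 1.17.1), whose smallest p is 0.1. Alternatives were TMM and RLE factors, testing without the filter or with a minimum count of 10, DESeq2 1.42.0, limma 3.58.1 (voom with quality weights), a replicate block, all 12 libraries, thinning, unlisted circRNAs set to 0 and each library left out. The scripts were tested on simulated data. There the test of 4T1 against B16F10 recovered 76% of 4-fold and 97% of 8-fold changes of circRNAs. The interaction test recovered 16% and 37% of changes set in 4T1 alone. Host sums leave out the 145 circRNAs that name several hosts, and 10 host names differed between the tables. PCR reads without molecular identifiers are not independent molecules, so floors and intervals of ratios cover counting error only.

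The named circRNAs were the 5 most abundant in each line, the 8 called with the largest fold each way (at least 5 reads on average in each line), the 6 most abundant read in 1 line only, the 5 most alike, and the 4 with the smallest interaction p in each direction among those called. Named hosts were the 2 with the smallest p in each list and the 6 with the smallest usage p, with other called list members beside their counts. Some genes that these rules select are not reported here. CircRNAs and lists were chosen with earlier results of these data known. Left out of the tests were circRNAs listed in 1 table only, 564 in the mammary and 3982 in the melanocyte table.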

Additional observations from a re-analysis of the deposited data

Results flagged for a closer look

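The difference between 4T1 and B16F10 departed from that between Eph4-ev and Melan-a for 172 circRNAs, by the edgeR interaction test over 12 libraries. Of the named ones, the interaction log2 was 2.23 for Med13l exon 2, 9.06 for Fam160b1, 8.44 for Arhgap32 and 6.39 for Qk. For Fam160b1 and Arhgap32 it came mostly from the non-tumour lines, where Eph4-ev had 0 reads. Their non-tumour log2 differences were -8.20 and -5.68, against 0.87 and 2.74 in the tumour lines. It was -4.41 for the circle listed under Eif5b and Rev1 and -7.26 for Spen. Values for circRNAs with 0 to 3 reads in a line depend on the prior count of the fit.

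A further 139 circRNAs had at least 2 reads in each B16F10 library but are not listed in the mammary table, and so entered no comparison here. Of the mammary table, 0 circRNAs were in the reverse position. The most abundant was the circle of exons 7 to 8 of Pmel (chr10:128717751-128718142), a melanosome matrix protein gene, with 201, 140 and 147 reads and a mean of 9037 RPM. Those of Aff3 (3561 RPM), Cfap54 (2449), Epha3 (2149) and Sox5 (1943) followed. Whether a circRNA that the mammary table does not list was absent from 4T1 or removed in making that table was not tested.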

How the results depend on the processing

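The counts of circRNAs and host genes in each direction stayed within 1.5 times the reported ones under the alternatives run, except that host genes lower rose from 99 to 170 with unlisted circRNAs set to 0. CircRNAs read only in 4T1 were 223 with a minimum of 1 read and 34 with 5 (131 with 2), and 169 to 297 without 1 library. Those read only in B16F10 were 135, 26 and, with unlisted circRNAs set to 0, 207 (68 as reported), and 96 to 116 without 1 library, since fewer libraries then have to meet the rule. The order of circRNAs detected per library turned round over each library's own table (difference -471, 4T1 minus B16F10). Hosts with different usage were 5 to 39 without 1 library (15 as reported). No pairing of libraries by replicate number was seen: deviations of same-numbered libraries correlated at -0.0126, -0.0316 and 0.0294. Those of differently numbered libraries correlated at -0.0381 to 0.0473. With 3 libraries per line and low counts, these values cannot exclude pairing. With a replicate block the calls were 129 and 102 circRNAs, 143 and 93 hosts, 152 interactions and 12 usage hosts.

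Among named circRNAs and hosts, the signs that changed were of differences that were not called, all but that of Trp53bp1 near 0. With TMM and RLE factors these were Dennd1b exons 6 to 9 (-0.194 and -0.187), Cnot2 (-0.209 and -0.213) and Atxn2 (-0.168 and -0.166), and with limma-voom the same circRNAs (-0.0411, -0.0175 and -0.0302). The block gave -0.023 for Dennd1b, and thinning -0.11 for Cnot2 and 0.119 for Stxbp5. Without 1 library, the values ran from -0.21 to 0.055 for Dtnb, -0.387 to 0.248 for Dennd1b, -0.222 to 0.203 for Cnot2, -0.321 to 0.321 for Atxn2, -0.199 to 0.0952 for Stxbp5, -0.339 to 0.139 for Fars2 exons 3 to 4 and -0.343 to 0.0801 for the Canx host sum. The Trp53bp1 host sum, at 0.809 by the test as run for all hosts, gave -0.136 with unlisted circRNAs set to 0. That setting adds to the host sum its circRNAs listed in 1 table only, with 0 reads in the libraries of the other table. Why the other signs changed was not tested. Over all named circRNAs and hosts, 2544 values kept direction and call, 253 lost the call and 4 gained it. At 15572 to 44625 reads per library, 1 or 2 reads decide whether a rare circRNA is seen, and only 692 of 8928 had enough reads to test.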
